A study of Mus musculus with 2 samples.

Results

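Complement components and regulators were followed in the liver of mice with injured kidneys, as a list of 31 genes taken by role from the cascade. Of these, 28 had at least 1 probe set whose platform annotation named that gene alone, among 18193 such genes on the array. C3 and Cfd had no such probe set, and the probe set of C4b also names its close copy C4a, so these 3 genes were not analysed here. Affymetrix arrays measured liver RNA from 2 pools, each made from 100 mg of frozen liver of each of 3 male wild-type mice of the strain C57BL/6. In the first pool both kidneys of the mice, aged 8 weeks, underwent warm ischaemia for 30 minutes and then reperfusion. In the second pool, mice of the same strain, sex and age had a sham operation. All livers were collected 24 hours after surgery, and each pool was put on 1 array. The pooling averages the mice, so the spread between animals is unknown, no test or p-value can be given, and each difference describes these 2 pools.

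Complement is a cascade of plasma proteins that coats microbes and damaged cells, attracts leukocytes and can puncture membranes. The classical pathway starts when C1q binds antibody or another ligand, the lectin pathway when mannose-binding lectins bind sugars, and the alternative pathway runs on C3 that turns over in plasma. All of them split C3 and then C5, after which the terminal components assemble into the membrane attack complex, while regulators on cells and in plasma hold the cascade back. Hepatocytes make most of the soluble components, whereas C1q and properdin come mainly from macrophages and other myeloid cells, and several components are acute phase proteins.

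Complement transcripts were mostly lower in the pool from mice with kidney injury, with every measured gene of the classical, lectin, alternative and terminal steps lower by its brightest probe set and the regulators split. Of the 28 genes, 24 had a lower and 4 a higher signal after renal ischaemia-reperfusion than after sham surgery. That makes 85.7% of the members lower, against 50.7% of all 13117 genes that passed the filter, of which 49.3% were higher. At a threshold of 2-fold, 5 members were lower, namely C1qa, C1s1, Mbl1, C8a and C5ar1, and none was higher. They are 17.9% of the members, beside 9.59% of all genes past that threshold on the lower side and 8.71% on the higher side. The median log2 difference, always taken as renal ischaemia-reperfusion minus sham, was -0.36 over the members and -0.01 over all genes. Most differences were small, with 17 members within 0.5 of 0 on the log2 scale (60.7%, against 55.8% of all genes). All 4 genes with a higher signal were regulators (Vtn, Clu, Cd46 and Serping1). The probe sets of Vtn, Clu and Cd46 all carry a suffix (_x_at or _a_at). With suffixed probe sets left out, 21 of 22 members were lower, and the median of the 5 regulators left was -0.34.

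Signals are the deposited intensities on a linear scale, and log2 differences were taken after adding a pseudocount of 16, which shrinks the differences of dim probe sets. A gene passed the filter when it reached the array's median signal in at least 1 pool. That median was 254.1 after renal ischaemia-reperfusion and 257.0 after sham surgery. All 28 measured members passed, 25 of them on both arrays. C1qa, Cd55 and C5ar1 passed through the sham array alone, so they had to differ in that direction, and their folds are also given as a lower bound against the median of the other array. With dim signals raised to that median, 4 members and 6.62% of all genes were at least 2-fold lower. Of the 25 members that passed on both arrays, 21 were lower, beside 50.9% of all genes that did so. At 2-fold, 3 of these 25 were lower, beside 6.17% of such genes. Where a gene had several probe sets, the brightest on average stands for it. Probe sets of the same gene disagreed across the array with an SD of 0.72 in log2 difference, which is as large as most differences described here.

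**Figure D1:**
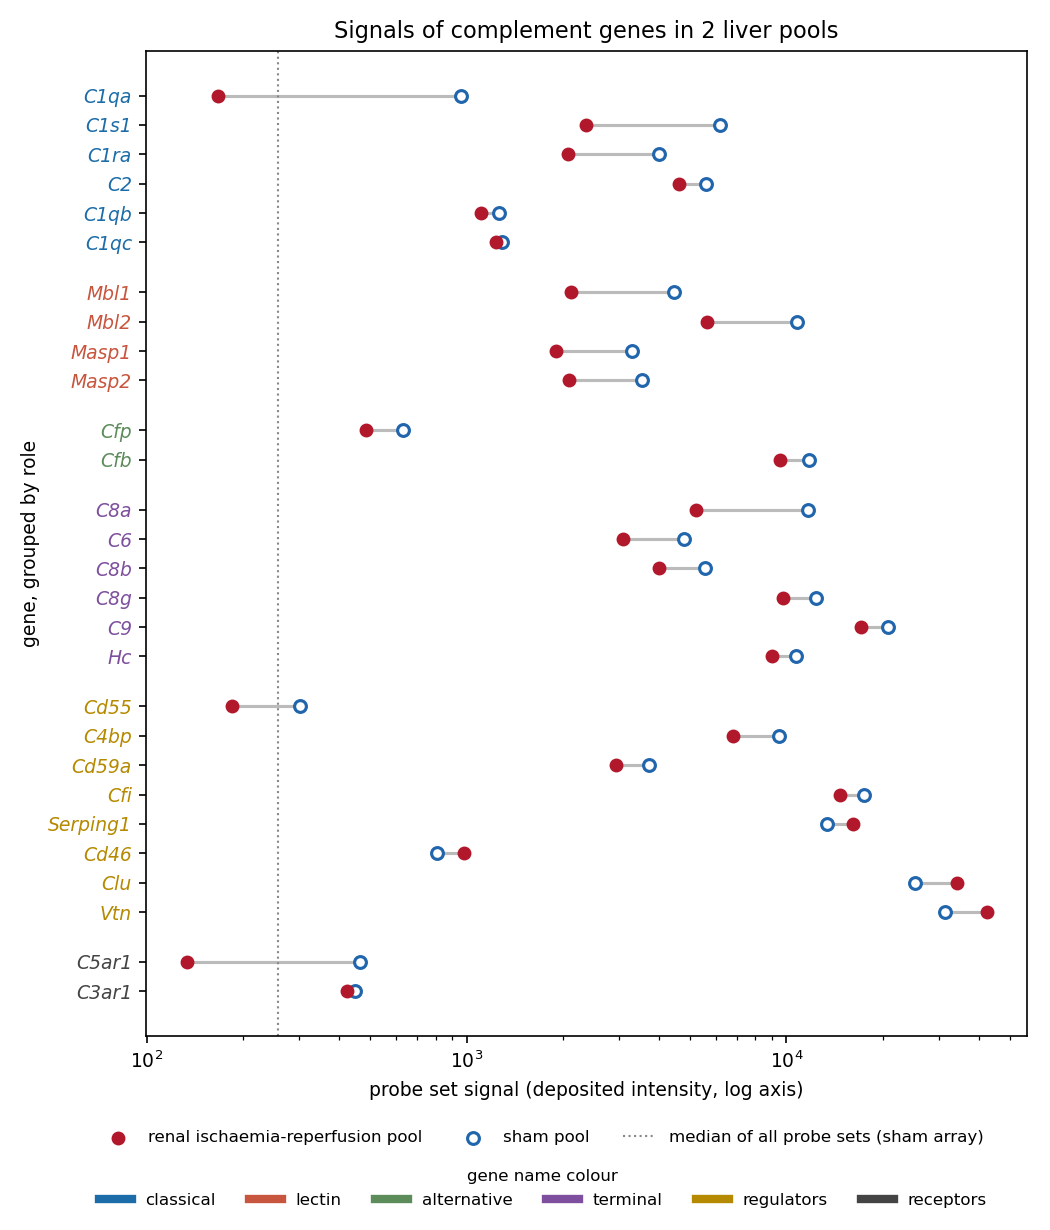
Signal of each measured complement gene on a log axis in the renal ischaemia-reperfusion pool (filled points) and the sham pool (open points), 1 array each, grouped by role and sorted by difference. The filled point lies left of the open one for 24 of 28 genes, and the 4 exceptions (Serping1, Cd46, Clu and Vtn) all stand among the regulators.

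RefSeq's table for the build GRCm38.p6 holds promoter windows for 23 of the 31 listed genes, each 300 bases long, with 250 bases before the gene's start and 50 after it, and the first is used where a gene has several. The windows of 6 genes are shown, picked for their place on the chromosome or their signals, and no result on the signals rests on them. C1ra with C1s1 and C8a with C8b are neighbours on their chromosomes that were lower together, Mbl1 was past the 2-fold threshold, and Vtn was among the genes with a higher signal. Capitals mark matches on either strand to GTTAAT, part of the site of the hepatocyte factor HNF1, or to TTNNGNAAT, letters of the C/EBP type of site.
C1ra promoter, chr6:124512371-124512670, plus strand: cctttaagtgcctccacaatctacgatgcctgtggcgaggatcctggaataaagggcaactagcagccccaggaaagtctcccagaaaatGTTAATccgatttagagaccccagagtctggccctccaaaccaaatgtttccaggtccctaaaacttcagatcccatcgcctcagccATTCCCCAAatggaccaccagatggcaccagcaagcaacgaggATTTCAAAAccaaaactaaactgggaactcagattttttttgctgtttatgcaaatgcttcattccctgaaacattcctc
C1s1 promoter, chr6:124542310-124542609, minus strand: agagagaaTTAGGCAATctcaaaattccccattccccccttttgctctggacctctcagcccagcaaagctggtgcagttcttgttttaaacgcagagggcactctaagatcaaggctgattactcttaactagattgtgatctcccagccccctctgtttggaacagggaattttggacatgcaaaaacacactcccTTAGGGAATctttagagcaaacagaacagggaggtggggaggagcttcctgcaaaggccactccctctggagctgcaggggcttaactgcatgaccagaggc
C8a promoter, chr4:104876349-104876648, minus strand: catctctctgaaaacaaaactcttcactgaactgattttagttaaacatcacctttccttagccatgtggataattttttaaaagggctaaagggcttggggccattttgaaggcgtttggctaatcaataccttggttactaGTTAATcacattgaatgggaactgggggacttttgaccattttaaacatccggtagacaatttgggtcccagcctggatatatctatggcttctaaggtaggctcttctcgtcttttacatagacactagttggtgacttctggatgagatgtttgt
C8b promoter, chr4:104766067-104766366, plus strand: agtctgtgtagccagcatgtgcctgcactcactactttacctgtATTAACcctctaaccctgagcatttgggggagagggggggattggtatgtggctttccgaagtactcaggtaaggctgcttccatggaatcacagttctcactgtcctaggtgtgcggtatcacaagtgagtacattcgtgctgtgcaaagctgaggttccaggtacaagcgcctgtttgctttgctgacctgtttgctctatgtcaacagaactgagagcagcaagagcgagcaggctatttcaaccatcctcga
Mbl1 promoter, chr14:41151206-41151505, plus strand: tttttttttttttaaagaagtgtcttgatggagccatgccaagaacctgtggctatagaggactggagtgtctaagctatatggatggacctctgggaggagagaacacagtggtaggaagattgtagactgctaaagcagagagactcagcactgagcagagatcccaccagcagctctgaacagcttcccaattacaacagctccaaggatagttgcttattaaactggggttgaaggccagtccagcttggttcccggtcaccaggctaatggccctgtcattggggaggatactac
Vtn promoter, chr11:78498870-78499169, plus strand: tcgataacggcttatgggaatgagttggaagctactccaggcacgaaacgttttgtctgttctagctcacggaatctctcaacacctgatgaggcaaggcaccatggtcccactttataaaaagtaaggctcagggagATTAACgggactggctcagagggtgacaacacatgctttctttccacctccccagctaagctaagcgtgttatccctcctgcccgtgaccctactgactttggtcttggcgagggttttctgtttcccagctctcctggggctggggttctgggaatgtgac
In these windows the capitals of the 2 patterns nowhere overlap. GTTAAT stands in 8 of the 23 members' windows (34.8%), against 7.10% of all 32851 windows, and those members are C1ra, C4bp, C8a, C8b, Cd55, Cfp, Hc and Vtn. They include genes with a lower and with a higher signal. TTNNGNAAT stands in 6 of 23 (26.1%), against 11.5% of all windows, in C1ra, C1s1, C3, C6, C9 and Hc. The Mbl1 window held neither. Each member counts once in these shares, whereas the shares of all windows count every window of a gene that has several. In all, 12 letter patterns were searched on both strands, some of which contain or overlap each other, and the 2 marked ones were picked after their counts were seen. TTGCNNAA (C/EBP, short form) and the loose STAT pattern TTCNNNGAA each stood in 4 member windows, against 10.8% and 8.30% of all windows. The TATA box letters TATAAA stood in 4 (13.6% of all) and a pattern of the interferon regulatory factor type in 3 (3.44% of all). No member window held CAAAGTCCA (HNF4 type), the whole HNF1 palindrome, a strict or a loose NF-kB pattern, TTCCNGGAA (strict STAT type) or a glucocorticoid receptor pattern. Of all windows, 0.475%, 0.00913%, 0.411%, 1.47%, 1.15% and 0.475% held these, in the same order. A match is a run of letters and not a shown binding site.

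The classical pathway was measured through 6 of its 7 listed genes, all with a lower signal after renal ischaemia-reperfusion, at a median log2 difference of -0.61. Without C1qa, which was dim in 1 pool, the median of the other 5 was -0.28. C1s1 encodes C1s, which cleaves C4 and C2. Its probe set had a signal of 2354 after renal ischaemia-reperfusion, against 6182 after sham surgery, 2.61-fold lower. That probe set carries a suffix for possible cross-hybridisation with related genes, and it is the only one for C1s1. C1ra encodes C1r, which activates C1s, and had a signal of 2073 after renal ischaemia-reperfusion and 3984 after sham surgery. This is a log2 difference of -0.94, just short of the 2-fold threshold. C2, the substrate of C1s that forms part of the C3 convertase, had signals of 4612 after renal ischaemia-reperfusion and 5613 after sham surgery. Its 3 probe sets all showed a lower signal, with log2 differences of -0.66 to -0.28.

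The recognition molecule C1q has 3 chains, encoded by C1qa, C1qb and C1qc side by side on chromosome 4, and their probe sets did not move alike. C1qa had a signal of 166.5 after renal ischaemia-reperfusion, under the array median, against 958.5 after sham surgery. Its measured difference was 5.34-fold, and it was at least 3.61-fold lower against that median. C1qc had signals of 1233 after renal ischaemia-reperfusion and 1292 after sham surgery, a log2 difference of -0.07. C1qb had 1111 after renal ischaemia-reperfusion and 1262 after sham surgery by its brightest probe set. Its other probe sets, both open to cross-hybridisation, went opposite ways, at 833.3 against 565.1 and at 252.6 against 684.3, so C1qb ranged from -1.38 to 0.55 on the log2 scale. The 3 chains assemble into a common protein, and only 1 of their genes was past 2-fold.

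C1q is a macrophage product, and markers of Kupffer cells, the macrophages of the liver, were mostly lower, few of them by much. All 11 markers of that list were measured, 9 with a lower and 2 with a higher signal, beside 50.7% and 49.3% of all genes. Their median log2 difference was -0.29. Their summed signal was 9929.8 after renal ischaemia-reperfusion and 13346 after sham surgery, and none was at 0. Only Cd5l, a secreted macrophage protein, was past 2-fold, with signals of 663.5 after renal ischaemia-reperfusion and 2004 after sham surgery. The defining Kupffer marker Clec4f had 828.7 after renal ischaemia-reperfusion and 1545 after sham surgery, and the macrophage marker Adgre1 942.0 and 1333, in the same order. The 2 higher ones were Cd68, with 801.9 and 576.5, and Marco, with 437.5 and 384.4. Cd163 hardly differed, at 374.6 and 375.2. The part of macrophage number in the C1q values was not tested. In pooled tissue, fewer cells of a type and less RNA per cell cannot be told apart.

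The lectin pathway had the lowest median of the pathways with more than 2 measured genes. All 4 of its genes had a lower signal after renal ischaemia-reperfusion, within a narrow span of -1.06 to -0.76 and at a median log2 difference of -0.85. Mbl1 and Mbl2 encode the mouse mannose-binding lectins A and C, which bind sugars on microbes. Mbl1 had a signal of 2122 after renal ischaemia-reperfusion, against 4452 after sham surgery, 2.09-fold lower and so just past the threshold. Mbl2 had 5648 after renal ischaemia-reperfusion and 10761 after sham surgery, 1.90-fold lower and just short of it. Masp2 encodes the protease that cleaves C4 and C2 once a lectin has bound. It had signals of 2085 after renal ischaemia-reperfusion and 3531 after sham surgery, and its 2 probe sets lay close together at -0.76 and -0.74. Masp1 encodes the protease that activates Masp2, and the same gene makes shorter and alternative products. Its brightest probe set had 1906 after renal ischaemia-reperfusion and 3286 after sham surgery, a log2 difference of -0.78. The other 3 probe sets of Masp1 past the filter stood at -0.32, -0.18 and -0.12, so its difference depends on the probe set read.

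For the alternative pathway, 2 of the 4 listed genes were measured, and both differed little. Cfb, factor B, supplies the protease of the alternative C3 convertase and is known as an acute phase protein. It had a signal of 9553 after renal ischaemia-reperfusion and 11763 after sham surgery, a log2 difference of -0.30. Cfp encodes properdin, which stabilises that convertase. By its brighter probe set it had signals of 483.8 after renal ischaemia-reperfusion and 632.6 after sham surgery, and by the other 260.0 and 168.5 in the same order. These probe sets differ in sign (-0.38 and 0.58), so no direction can be given for Cfp.

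**Figure D2:**
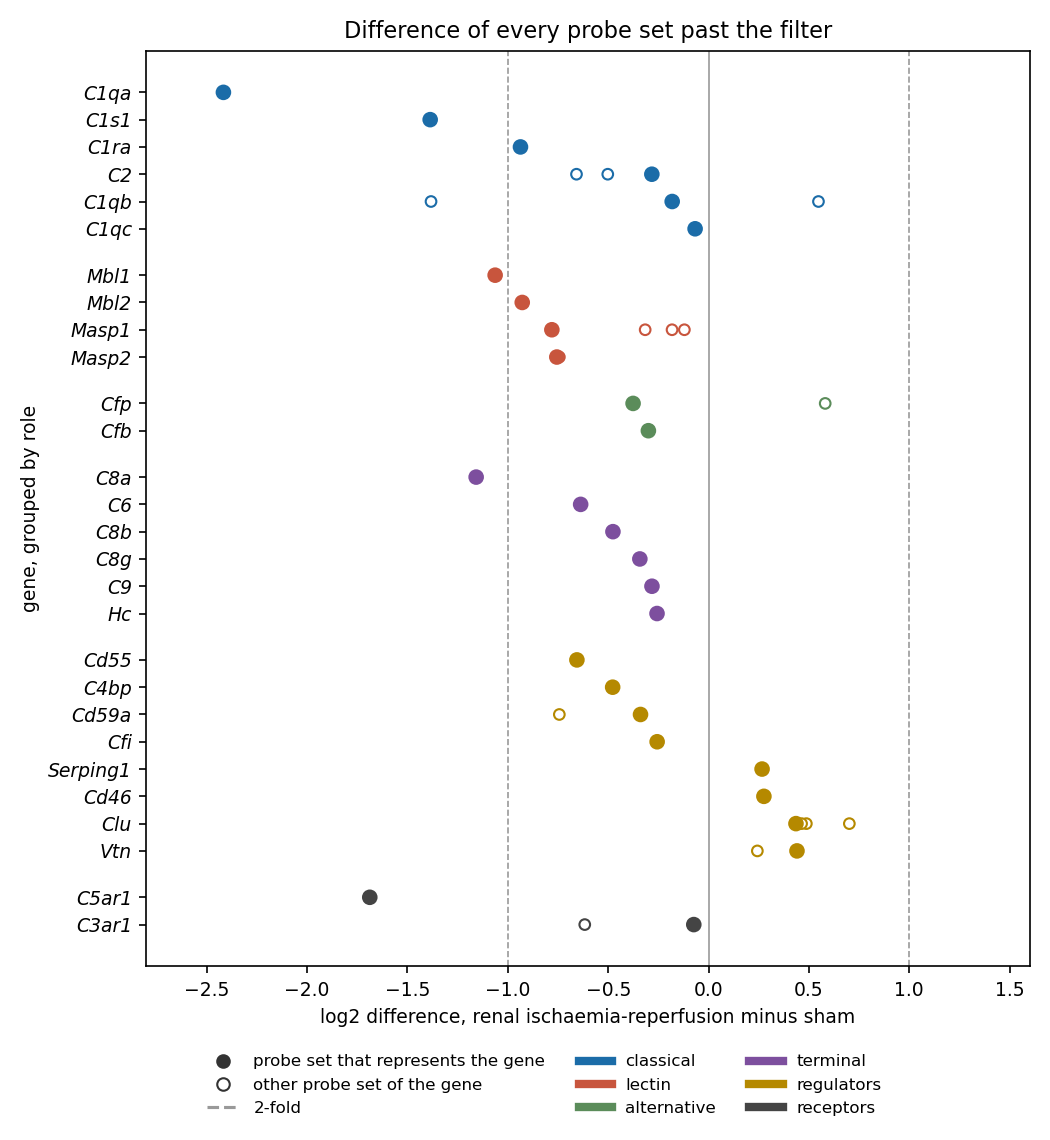
Log2 difference (renal ischaemia-reperfusion minus sham) of all 43 member probe sets past the filter, 1 row per gene, with filled points for the probe set that represents the gene and open points for the others. Dashed lines mark 2-fold. The lectin genes fall at -1.06 to -0.76 by their filled points, the open points of Masp1 lie nearer 0, and C1qb and Cfp have points on both sides of 0.

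The terminal pathway was measured in full, and all 6 genes had a lower signal after renal ischaemia-reperfusion, at a median log2 difference of -0.41. C8 is a complex of alpha, beta and gamma chains from 3 genes, and it inserts into the target membrane. C8a had a signal of 5231 after renal ischaemia-reperfusion, against 11690.2 after sham surgery, 2.23-fold lower and the only terminal gene past the threshold. C8b had 3999.6 after renal ischaemia-reperfusion and 5571 after sham surgery, a log2 difference of -0.48. C8g had 9728 after renal ischaemia-reperfusion and 12337 after sham surgery (-0.34). The 3 chains, each read by 1 probe set, thus had differences of unequal size in the same direction. C6, an early component of the membrane attack complex, had 3073 after renal ischaemia-reperfusion and 4789 after sham surgery (-0.64). C9, whose copies form the ring of the pore, had 17051 after renal ischaemia-reperfusion and 20735 after sham surgery. Hc, the mouse gene for C5, had 8988 after renal ischaemia-reperfusion and 10742 after sham surgery. The log2 differences of C9 and Hc were -0.28 and -0.26, well within the disagreement of probe sets.

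The regulators were split, with 4 of 8 genes lower and 4 higher in signal, none past 2-fold and a median log2 difference of 0.01. Those with higher signals include proteins that act on the first and the last step. Of these genes, only Serping1 has a probe set without a suffix. Serping1 encodes the C1 inhibitor, which disables C1r, C1s and the lectin proteases. It had a signal of 16121 after renal ischaemia-reperfusion, against 13398 after sham surgery, a log2 difference of 0.27. Vtn and Clu encode vitronectin and clusterin, which keep the terminal complex from inserting into membranes. Vtn had 42348 after renal ischaemia-reperfusion and 31202 after sham surgery, and its 2 probe sets stood at 0.44 and 0.24. Clu had 34197 after renal ischaemia-reperfusion and 25285 after sham surgery, and all 4 of its probe sets were higher, at 0.44 to 0.70. Cd46, a membrane cofactor for the cleavage of C3b, had 979.8 after renal ischaemia-reperfusion and 806.6 after sham surgery (0.28).

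Of these 4 regulators, Clu was above 0 under every scaling tried, at 0.11 by quantile normalization. By the same normalization Vtn stood at -0.03 and Serping1 at -0.01, while Cd46 was at 0.28. With the bacterial hybridisation controls as the reference, which lowers all genes alike by 0.28, Vtn and Clu stood at 0.16 and 0.15. Serping1 and Cd46 then stood at -0.02 and -0.01, against a median of -0.30 over all genes. In these 2 scalings the median of the lectin genes was -0.92 and -1.14, and that of the terminal genes -0.57 and -0.69.

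The other regulators had lower signals after renal ischaemia-reperfusion. Cfi, the protease that degrades C3b and C4b, had 14662 after renal ischaemia-reperfusion and 17515 after sham surgery (-0.26). C4bp, the plasma cofactor that binds C4b, had 6789 after renal ischaemia-reperfusion and 9461 after sham surgery (-0.48). Cd59a, which blocks the membrane attack complex on cells, had 2936 after renal ischaemia-reperfusion and 3718 after sham surgery, with its 2 probe sets at -0.34 and -0.74. Cd55, which speeds the decay of convertases on cells, was dim. It had 185.2 after renal ischaemia-reperfusion and 301.0 after sham surgery, at least 1.17-fold lower, and its remaining probe sets were under the array median in both pools.

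Both receptors for the small cleavage fragments that call in leukocytes were weakly measured. C5ar1, the C5a receptor of myeloid cells, had a signal of 133.1 after renal ischaemia-reperfusion, under the array median, against 464.3 after sham surgery. The measured difference was 3.22-fold, but only at least 1.78-fold against that median, which is short of the threshold. The other probe set of C5ar1, under the array median in both pools, had 107.7 after renal ischaemia-reperfusion and 80.5 after sham surgery. That is the opposite direction. C3ar1, the C3a receptor, had 423.4 after renal ischaemia-reperfusion and 446.4 after sham surgery by its brightest probe set, with log2 differences of -0.07 and -0.62 over the 2 past the filter. Its remaining probe set, under the array median in both pools, went the opposite way, with 139.6 after renal ischaemia-reperfusion and 21.5 after sham surgery. Neutrophils carry C5ar1, and of the 8 neutrophil markers past the filter 5 had a higher and 3 a lower signal. The 9 measured markers summed to 6971 after renal ischaemia-reperfusion and 5309.8 after sham surgery, with none at 0. The higher sum rests on S100a8 and S100a9. Ngp, Csf3r and Mpo had log2 differences of 0.37, 0.18 and 0.07, and Elane and Ltf of -0.44 and -0.39. S100a8 had 1407 after renal ischaemia-reperfusion and 45.6 after sham surgery, at least 5.21-fold higher against the median of the sham array. S100a9 had 788.1 and 204.8 in the same order, at least 2.95-fold higher by that measure. The chemokine receptor Cxcr2 had 107.6 and 291.8 in the same order. It was dim after renal ischaemia-reperfusion and at least 1.14-fold lower. The part of neutrophils in the C5ar1 value was not tested.

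**Figure D3:**
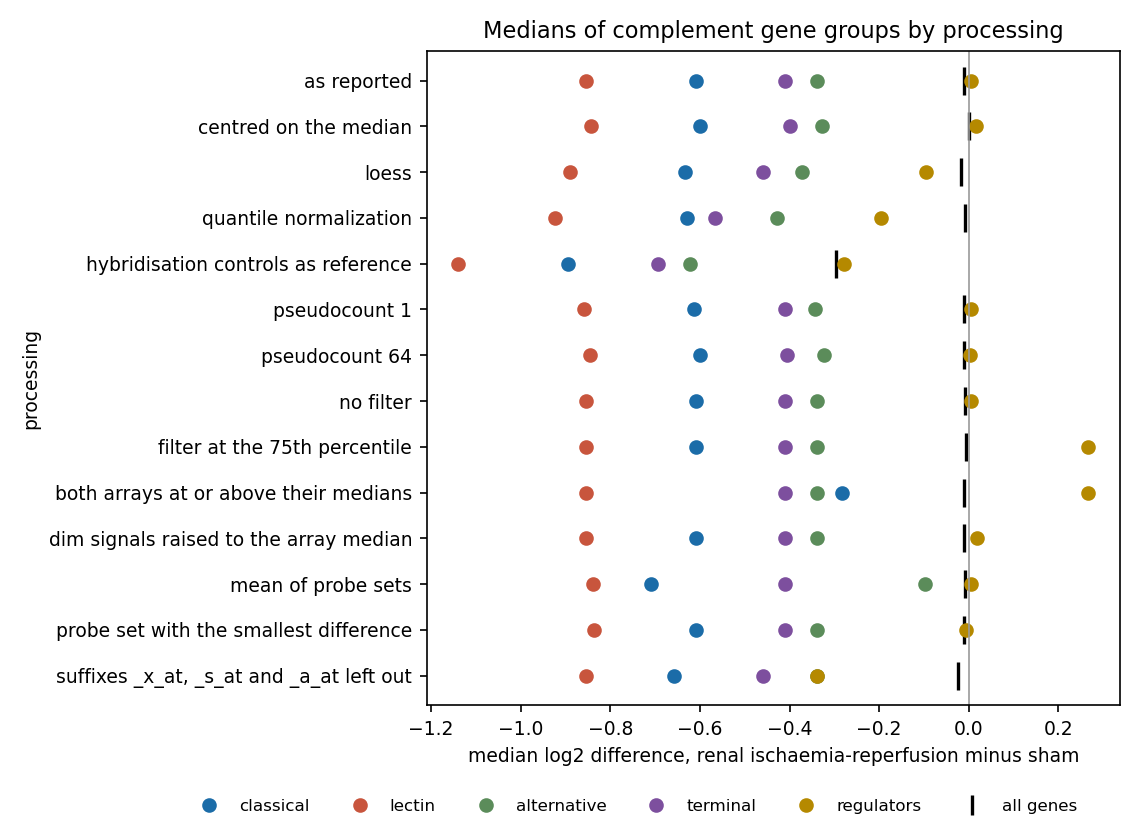
Median log2 difference (renal ischaemia-reperfusion minus sham) of the measured genes of 5 roles under each way of processing, with a black bar for the median of all genes. The lectin genes lie lowest in every row and the regulators move across 0, from -0.34 to 0.27. In the last row the alternative genes are hidden behind the regulators.

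Further genes of the complement system, listed beside the 31, were more mixed. Of 30 such genes 20 had a probe set of their own and 18 passed the filter. After renal ischaemia-reperfusion 11 of the 18 were lower and 7 higher in signal, beside 50.7% and 49.3% of all genes. Their median log2 difference was -0.23. Past 2-fold stood 5 of the 18 on the lower side and 3 on the higher side, beside 9.59% and 8.71% of all genes. Lower genes of the plasma included Cfhr2, related to factor H, with a signal of 839.3 after renal ischaemia-reperfusion and 3538 after sham surgery (4.16-fold). The other probe set of Cfhr2 had 383.9 and 888.1 in the same order, a log2 difference of -1.18. Cpn2, a subunit of the carboxypeptidase that inactivates anaphylatoxins, had 934.3 after renal ischaemia-reperfusion and 3357 after sham surgery (3.55-fold), whereas its catalytic partner Cpn1 stood at -0.29 on the log2 scale. Colec10 and Colec11 encode collectins that, like the mannose-binding lectins, work with the lectin proteases. Colec10 had 266.8 after renal ischaemia-reperfusion and 678.0 after sham surgery. Colec11 had 1014 and 1785 in the same order by its brighter probe set, which carries a suffix for possible cross-hybridisation (-0.81). The other probe set of Colec11 had 113.9 and 719.5 (-2.50), so the size depends on the probe set read. Both genes went the same way as Mbl1 and Mbl2. The ficolins, which also start this pathway, did not follow. Fcna stood at -0.04 and Fcnb at 0.10. Susd4, a membrane regulator, was 2.10-fold lower, and Csmd1, another, passed the filter through the sham array alone and was at least 1.54-fold lower.

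On the higher side stood Thbd, Cd93 and Calr. Thbd encodes thrombomodulin, an endothelial protein that promotes the inactivation of C3b, and had 1305 after renal ischaemia-reperfusion and 233.6 after sham surgery, at least 4.84-fold higher. Cd93, an endothelial and myeloid surface protein once proposed as a C1q receptor, had 1537 after renal ischaemia-reperfusion and 512.5 after sham surgery. Calr encodes calreticulin, a chaperone that binds C1q at the surface of dying cells, and had 37172 after renal ischaemia-reperfusion and 17674 after sham surgery (2.10-fold higher). Markers of sinusoidal endothelium summed to 10053 after renal ischaemia-reperfusion and 10017 after sham surgery over 9 genes, with none at 0. Their sum rests on Lyve1, at 2741 after renal ischaemia-reperfusion and 326.8 after sham surgery, while 6 of the 9 were lower and the list's median log2 difference was -0.30. Clec4g was among the lower ones, with 1011 after renal ischaemia-reperfusion and 2117 after sham surgery. Of the complement receptors on Kupffer cells, Vsig4 had 939.0 after renal ischaemia-reperfusion and 1411 after sham surgery. The integrin genes Itgax (-0.91) and Itgb2 (0.31) went opposite ways, and Itgam and Cd55b were under the array median in both pools.

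**Figure D4:**
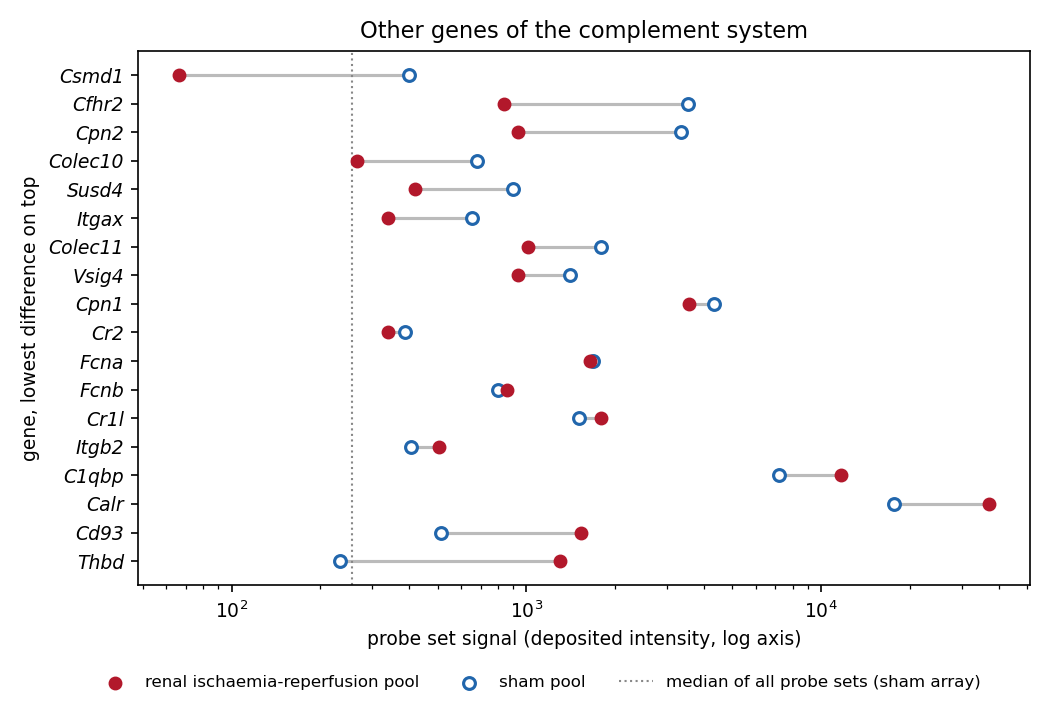
Signals of the other complement system genes past the filter on a log axis, in the renal ischaemia-reperfusion pool (filled points) and the sham pool (open points), sorted by difference. The filled point is the lower for 11 of 18 genes, with Cfhr2, Cpn2 and Colec10 far below their open points and Thbd, Cd93 and Calr far above.

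Other facts of the arrays bear on these values. Both arrays had been scaled to the same trimmed mean, yet all 18 probe sets for bacterial hybridisation controls were higher on the renal ischaemia-reperfusion array, at a median log2 difference of 0.28. The tissue was liver by its markers, with 8 of 8 measured hepatocyte genes above the median on both arrays and a median log2 difference of 0.37. Pancreatic acinar markers were present as well, all 8 measured ones higher in signal, with a sum of 12505 after renal ischaemia-reperfusion and 4651 after sham surgery. Of 5 measured biliary epithelial markers Sox9 had 731.2 after renal ischaemia-reperfusion and 318.8 after sham surgery. Epcam was at least 4.38-fold and Krt19 at least 1.93-fold higher, both passing the filter through the first pool alone, whereas Krt7 and Cldn7 were dim in both pools with the lower signal in the first. The 5 summed to 2517 after renal ischaemia-reperfusion and 761.5 after sham surgery. No marker was at 0. Of the 5 adipocyte markers past the filter 4 were higher, led by Cidec (at least 15.8-fold) and Fabp4 (at least 20.9-fold), whereas Adipoq and Lep, which define that cell type, were under the median in both pools. The 8 measured adipocyte markers summed to 28459 after renal ischaemia-reperfusion and 38783 after sham surgery, most of it from Car3. Of 7 stellate cell and fibroblast markers past the filter 6 were lower, and the 8 measured ones summed to 12372 after renal ischaemia-reperfusion and 10095 after sham surgery, the exception Dcn making up most of the sum after renal ischaemia-reperfusion. The part of these cell types in the complement values was not tested.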

How the data were processed

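Liver RNA of 2 pools was analysed, 1 after renal ischaemia-reperfusion and 1 after sham surgery, grouped by the treatment label. Per the labels' protocols, biotin-labelled cRNA was made from 6 ug of Trizol-extracted total RNA by the Affymetrix procedure. The deposited values are 1 intensity per probe set on a linear scale, and both arrays had a trimmed mean of 500.0 when the outer 2% at either end was dropped. The sources used here do not name the summarisation software or any background step. The number of arrays limits the precision.

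Gene names came from the platform annotation, which can be old, and 34945 of 45037 probe sets that are not controls named 1 gene, 932 several and 9160 none. Symbols were updated through the Entrez ID for 34741 of them. Differences are log2(intensity + 16), renal ischaemia-reperfusion minus sham, computed with Python 3.11.15 and pandas 2.3.3, and genes were counted at 2-fold with no test. The code was tested on simulated arrays. Every listed gene was named whatever its values, and other complement genes when they differed by 2-fold or the text needed them. The members, gene lists and alternatives were chosen with earlier results of these data known. Alternatives changed the scaling (median centring, loess with a span of 0.3, quantiles, hybridisation controls), the pseudocount (1 and 64), the filter, the choice of probe set, suffixes and the threshold (1.5-fold and 3-fold). Promoter windows are RefSeq's, and no genome was used.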

Additional observations from a re-analysis of the deposited data

How the results depend on the processing

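Across 13 alternatives for scaling, pseudocount, filter and probe sets, no member was at least 2-fold higher. In those that kept all 28 members, 23 to 26 were lower in signal. Of the 25 members kept by either stricter filter 21 were lower, as were 21 of the 22 left without suffixed probe sets. By quantile normalization and with hybridisation controls as the reference 26 of 28 were lower, beside 50.5% and 68.4% of all genes. C1qa, C1s1, Mbl1 and C8a were at least 2-fold lower in every alternative that kept them, and C5ar1 in 10 of 11, the exception being dim signals raised to the array median (-0.83), which left 4 members 2-fold lower, against 6.62% of all genes. Without suffixed probe sets C1s1, C8b, C8g, Vtn, Clu and Cd46 drop out. Serping1 is then the only member with a higher signal, and the regulator median is -0.34. C1qa and C5ar1 drop out when both arrays must be at or above their medians, which leaves 3 members 2-fold lower (6.17% of all genes) and puts the receptor median at -0.074 by C3ar1 alone. The hybridisation controls as the reference shift every log2 difference, the median of all genes included, by -0.28, so that 9 members were 2-fold lower (15.4% of all genes, with 5.76% higher). The 4 added were C1ra, Mbl2, Masp1 and Masp2. At 1.5-fold 11 members were lower (19.3% of all genes), and at 3-fold 2 were (4.49%). Masp1 stood at -0.12 by its probe set with the smallest difference. Of 352 values of single members under the alternatives, 346 kept their side of 2-fold. However, 17 members have 1 probe set, C1qa, C1s1, Mbl1 and C8a among them. For these, a stricter or looser filter or another choice of probe set could only drop the gene or repeat its value. That part of the agreement was fixed in advance. Mbl2 was also past 2-fold by quantile normalization (-1.06). Members whose probe sets are dim have only a bound, and differences of the size seen for most members cannot be told from the disagreement between probe sets. No paired analysis was possible because each group had 1 array.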

Other observations

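Several complement genes lie next to each other on a chromosome with no other protein-coding gene between them in RefSeq's GRCm38.p6 annotation. Cfb and C2, on chromosome 17 with 87 bases between them, had log2 differences of -0.30 and -0.28 (renal ischaemia-reperfusion minus sham). C1ra and C1s1, on chromosome 6 with 6903 bases between them, stood at -0.94 and -1.39. C8b and C8a, on chromosome 4 with 11130 bases between them, stood at -0.48 and -1.16, so these neighbours shared a direction but not a size. Of the C1q genes on chromosome 4, C1qb and C1qc, with 3600 bases between them, stood at -0.18 and -0.07. C1qc and C1qa, with 2979 bases between them, stood at -0.07 and -2.42, the signal of C1qa being dim after renal ischaemia-reperfusion and the gene at least 3.61-fold lower. No test of neighbours was made.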
